A study of Arabidopsis thaliana with 6 samples.

Results

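SR proteins and core spliceosome genes were examined as transcripts recovered with the RNA-binding protein ASI1 from Arabidopsis thaliana seedlings. The members were chosen by gene name, with earlier results of these data known. They are 41 genes for SR proteins, for the U1 and U2 particles and for other spliceosome proteins. Of these 41 genes, 26 were listed in the deposited tables, which hold 6351 genes in all. There were 23 members in the ASI1 table, 18 in the WT table and 15 in both. The study is a RIP-seq experiment, in which a protein is precipitated from crosslinked tissue and the RNA bound to it is sequenced. The ASI1 line and WT each have 2 RIP libraries and 1 library of input, which is RNA taken before precipitation. All 6 libraries came from whole 14 d old seedlings of ecotype Col-0, raised on 1% sucrose at 22 °C with 16 h light and 8 h dark periods. Tissue was crosslinked with 0.5% formaldehyde, and RIP of both genotypes used an anti-Flag antibody. The labels call the groups ASI1 and WT and give no promoter, number of lines or allele at the ASI1 locus. That the ASI1 line carries a Flag-tagged ASI1 and that WT carries no tag was inferred from the antibody. Whether the 2 RIP libraries of a genotype come from separate cultures is not stated in the labels, and the spread behind the p-values may be technical.

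The spliceosome removes introns from precursor messenger RNA. The U1 particle binds the 5′ splice site, while SF1 and the U2AF dimer bind the branch point, the polypyrimidine tract and the 3′ splice site before the U2 particle joins. SR proteins, which carry RNA recognition motifs and a domain rich in arginine and serine, bind exons and help these particles to choose splice sites. In plants, transcripts of SR proteins and of U1-70K are themselves known for extensive alternative splicing. ASI1 is known for favouring transcripts that reach a distal polyadenylation site in genes that carry heterochromatin inside an intron.

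Levels are given as CPM outside rRNA, each count divided by the counts of its library outside the 4 ribosomal RNA (rRNA) genes, which took most of every library. Outside rRNA, ASI1 RIP held 448561 and 362058 counts and the ASI1 input 23810.4, against 23303.9 and 103549 for WT RIP and 61643.6 for the WT input. A level that corresponds to 3 counts was 6.69 and 8.29 in ASI1 RIP and 126 in ASI1 input, against 129 and 29.0 in WT RIP and 48.7 in WT input. Low WT values therefore rest on very few counts. Green tissue markers were present in all 6 libraries, with summed levels of 5808 to 11449 in ASI1 RIP and 21893 in its input, against 15364 to 37571 in WT RIP and 41024 in its input, over the 8 of 11 genes listed in the ASI1 table and the 9 listed in the WT table. Of the root markers, 3 of 5 were listed in the ASI1 table and 5 in the WT table, with summed levels of 482 to 685 in ASI1 RIP and 2116 in its input, against 243 to 446 in WT RIP and 1253 in its input. None of the 4 seed storage and 3 pollen markers was listed. ASI1's own transcript (AT5G11470) was listed in the ASI1 table alone, at 254 and 554 in ASI1 RIP and 107 in the ASI1 input. The part of depth and of these markers in the results was not tested.

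Most of the spliceosome transcripts that both tables list stood higher in ASI1 RIP than in WT RIP. Both ASI1 RIP libraries were above both WT RIP libraries for 11 of 15 members (73.3%), against 26% of the 2319 shared genes outside rRNA. The reverse order held for 0 of 15 members and for 4.74% of those genes. The 11 members were the SR genes RS41, RS31 and RS2Z33, the U1 genes U1-70K and PRP39, the 4 genes of the branch point and 3′ splice site (SF1, U2AF65A, U2AF65B and U2AF35B), and SUS2 and SKIP. Summed over the 15 members, the level was 7229 and 6034 in ASI1 RIP and 6046 in ASI1 input, against 490 and 649 in WT RIP and 6145 in WT input. The inputs were alike in this sum only with U1-70K, whose level was 691 in ASI1 input and 3125 in WT input. Without it the input sums were 5355 in ASI1 and 3020 in WT. With or without U1-70K, WT RIP was low against both its own input and ASI1 RIP. No single member passed the test across all genes, as given further on.

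**Figure D1:**
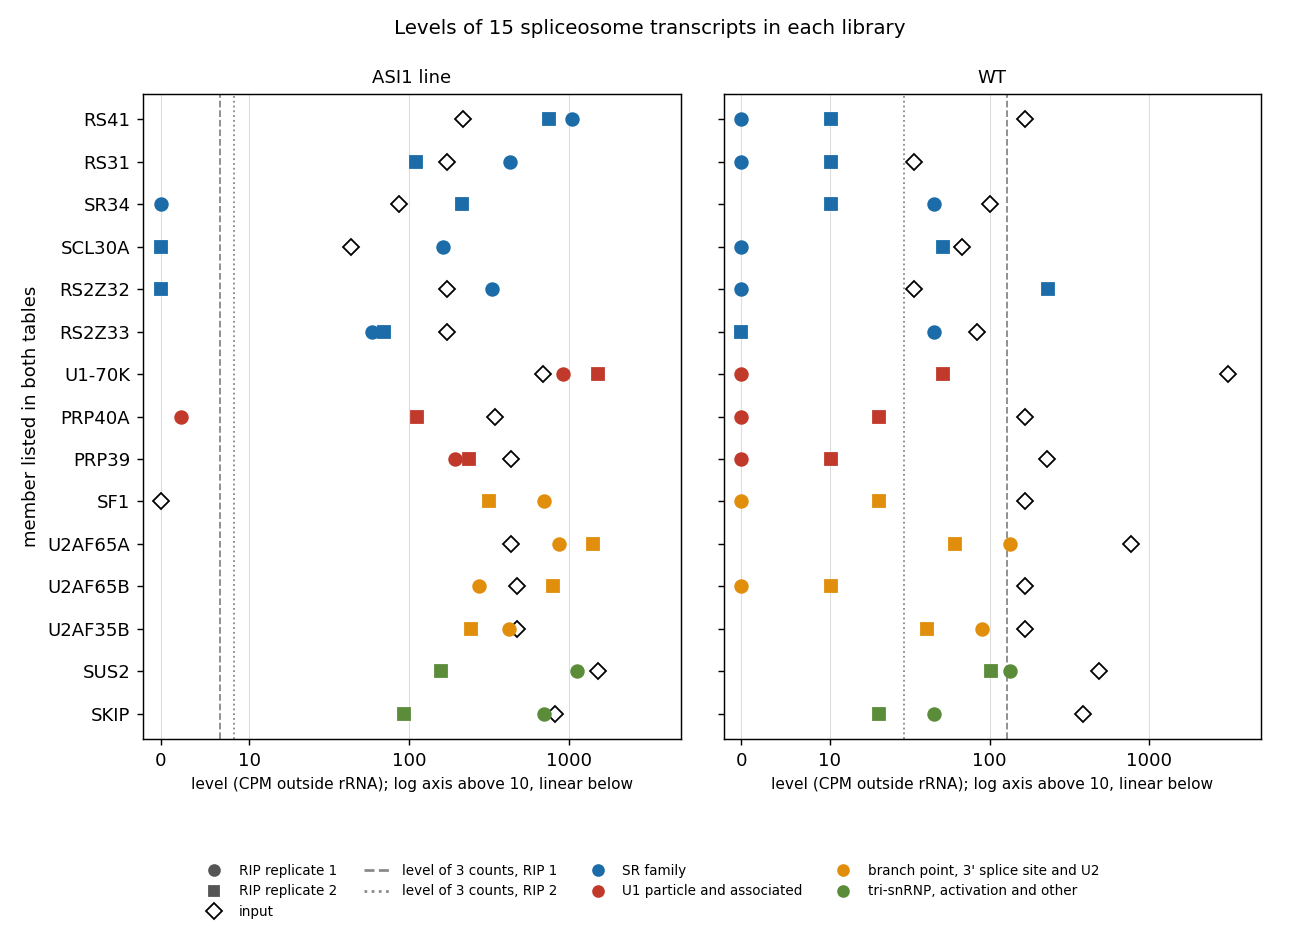
Levels of the 15 members listed in both tables (horizontal axis, CPM outside rRNA, logarithmic above 10 and linear below), with the ASI1 line on the left and WT on the right; filled symbols are RIP libraries, open diamonds are inputs and vertical lines mark the level of 3 counts in each RIP library. In WT most RIP symbols lie left of the input and 9 members are at 0 in replicate 1, whereas in ASI1 the RIP symbols lie on both sides of the input.

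The count of 11 depended on the scaling and on the smallest WT values. The median level over the shared genes was 186 and 173 in ASI1 RIP and 173 in ASI1 input, against 44.6 and 20.3 in WT RIP and 100.3 in WT input, so that the typical shared gene was also lower in WT RIP. With levels divided by the median of the genes above 0 in all 4 RIP libraries, 7 of 15 members were higher in both ASI1 RIP libraries, against 16.3% of the shared genes. When WT RIP levels under 3 counts were raised to the level of 3 counts, 8 of 15 members were higher, against 20.7% of the shared genes. These 8 were RS41, U1-70K, PRP39, SF1, U2AF65A, U2AF65B, U2AF35B and SUS2. Both alternatives were added after the values were seen.

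Among the SR proteins, RS41 (AT5G52040) was recovered most strongly with ASI1 relative to WT. RS41 encodes an SR protein of the plant-specific RS subfamily. It had levels of 1046 and 753 in ASI1 RIP and 216 in ASI1 input, against 0 and 10.1 in WT RIP and 167 in WT input. Both ASI1 RIP libraries stood above every other library. The inputs held only 5.14 counts in ASI1 and 10.3 in WT, with a ratio of 1.29 (95% interval 0.347 to 4.16). Pooled over both libraries and rounded to whole numbers, 742 counts in ASI1 RIP against 1 count in WT RIP gave a ratio of 116 after scaling (95% interval 20.8 to 4592, exact conditional binomial). Such intervals cover counting error only, not the spread between replicates. The fitted log2 fold of ASI1 RIP over WT RIP was 6.90 (SE 3.59), the highest among the members, with an adjusted p of 0.887 in edgeR's quasi-likelihood test.

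RS31 (AT3G61860), of the same subfamily, had levels of 426 and 109.6 in ASI1 RIP and 173 in ASI1 input, against 0 and 10.1 in WT RIP and 33.4 in WT input. The ASI1 RIP libraries lay above both WT RIP libraries but on either side of their own input, and differed 3.89-fold from each other. RS40 (AT4G25500), the close relative of RS41, was listed in the WT table alone, at 44.6 and 20.3 in WT RIP and 98.5 in WT input. Its WT RIP values rest on 1 and 2 counts.

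RS2Z33 (AT2G37340), an SR protein with zinc knuckles, had levels of 58.3 and 69.2 in ASI1 RIP and 173 in ASI1 input, against 44.6 and 0 in WT RIP and 83.6 in WT input. The groups did not overlap, but the higher WT value is 1 count. Its relative RS2Z32 (AT3G53500) had levels of 329 and 0 in ASI1 RIP and 173 in ASI1 input, against 0 and 233 in WT RIP and 33.4 in WT input. It was the only member with at least 20 counts in a WT RIP library, and its groups overlapped fully. Its pooled ratio of ASI1 RIP over WT RIP was 0.958 (0.620 to 1.54), the lowest of the 15.

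SR34 (AT1G02840), the plant relative of the human splicing factor SRSF1, had levels of 0 and 213 in ASI1 RIP and 86.4 in ASI1 input, against 44.6 and 10.1 in WT RIP and 100.3 in WT input. SCL30A (AT3G13570), of the SCL subfamily, had levels of 163 and 0 in ASI1 RIP and 43.2 in ASI1 input, against 0 and 50.7 in WT RIP and 66.9 in WT input. For both genes 1 of the 2 ASI1 RIP libraries was at 0, so the groups overlapped. SCL30 (AT3G55460), listed in the ASI1 table alone, also had 1 ASI1 RIP library at 0, with levels of 81.6 and 0 in ASI1 RIP and 43.2 in its input.

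The zinc knuckle SR genes RSZ21 (AT1G23860) and RSZ22 (AT4G31580) were listed in the ASI1 table alone. RSZ21 had levels of 294 and 216 in ASI1 RIP and 0 in the ASI1 input. RSZ22 had levels of 161 and 372 in ASI1 RIP and 0 in the ASI1 input. With 0 counts in the input, both genes could be listed only if both ASI1 RIP libraries were above 0. Their order against the input was therefore fixed by listing and carries no information. The 0 counts in that input allow a level of up to 126. Against that limit of 3 counts, the pooled ASI1 RIP level was at least 2.06-fold higher for RSZ21 and at least 2.03-fold higher for RSZ22.

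Of the pair of SR-like genes, SR45a (AT1G07350) was listed in the ASI1 table alone and SR45 (AT1G16610), a splicing regulator with an arginine and serine rich domain at each end, in the WT table alone. SR45a had levels of 219 and 251 in ASI1 RIP and 173 in the ASI1 input. Its RIP libraries differed 1.15-fold from each other, and the pooled ratio over the input was 1.39 (0.533 to 5.15). SR45 had levels of 44.6 and 0 in WT RIP and 66.9 in WT input, the RIP value being 1 count.

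**Figure D2:**
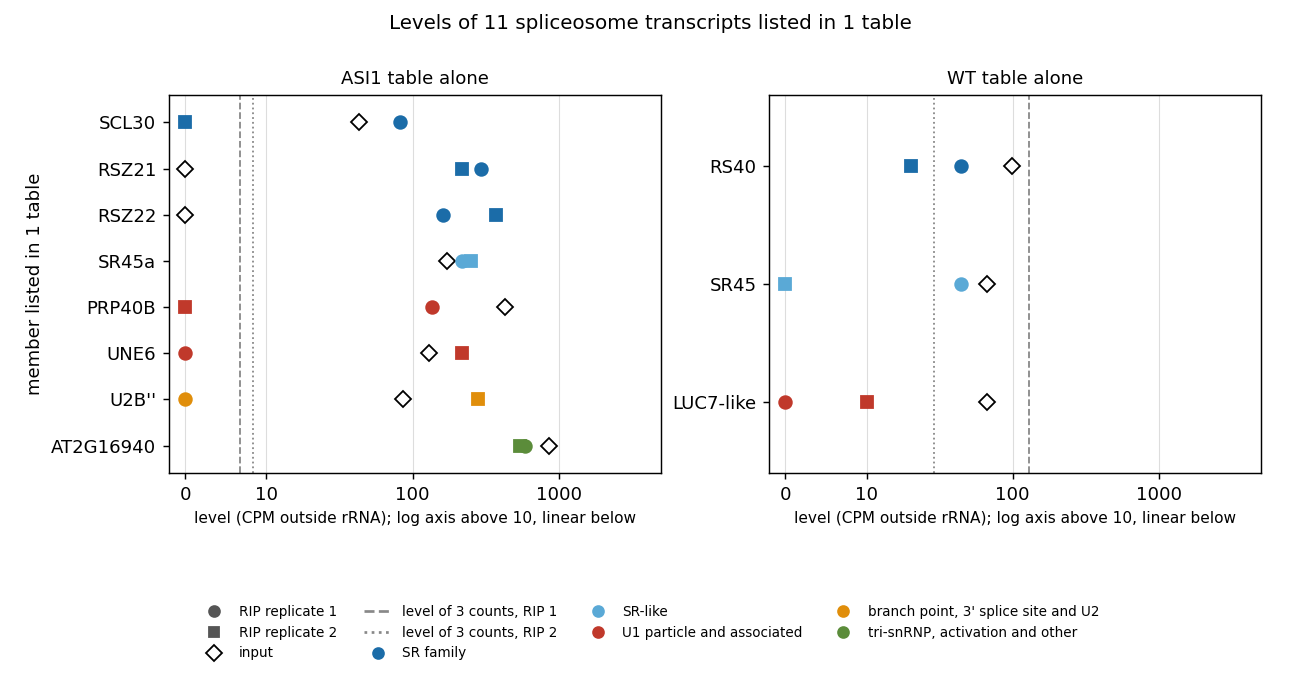
Levels of the 11 members listed in a single table (horizontal axis, CPM outside rRNA, logarithmic above 10 and linear below), with 8 from the ASI1 table on the left and 3 from the WT table on the right; symbols and lines are as in the plot of the members in both tables. RSZ21 and RSZ22 are at 0 in the ASI1 input and above 100 in both ASI1 RIP libraries, and the 3 WT members lie below their input.

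Among the U1 genes, U1-70K was high in ASI1 RIP and in both inputs and low in WT RIP. U1-70K (AT3G50670) encodes the U1 protein that binds the U1 small nuclear RNA and contacts SR proteins. It had levels of 918 and 1523 in ASI1 RIP and 691 in ASI1 input, against 0 and 50.7 in WT RIP and 3125 in WT input. Both ASI1 RIP libraries were above their input, while both WT RIP libraries were far below the WT input, which was the highest of all 6 libraries. In counts these levels were 412, 551 and 16.5 in the ASI1 libraries, against 0, 5.25 and 193 in the WT libraries. Pooled ASI1 RIP over WT RIP gave a ratio of 30.1 (12.9 to 93.0), while ASI1 input over WT input gave 0.215 (0.120 to 0.358). In whole seedlings, fewer cells of a type and less RNA per cell cannot be told apart in such input differences.

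U1-70K had an unadjusted p of 0.0399 for ASI1 RIP over WT RIP, with a fitted log2 fold of 5.35 (SE 2.60). It was the only member with an unadjusted p under 0.05 there, and its adjusted p was 0.887 in edgeR's quasi-likelihood test. For WT RIP over WT input its log2 fold was −6.70 (SE 2.87), with an unadjusted p of 0.0197 and an adjusted p of 0.987 in the same edgeR fit. The difference of the ASI1 and WT enrichments was 7.56 (SE 4.30) on the log2 scale, with an adjusted p of 1.00 in edgeR. All WT RIP counts of U1-70K are in WT RIP replicate 2. With that library left out these 3 fitted values became 10.81, −12.17 and 13.03, which depend on the prior count because the remaining library is at 0.

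PRP39 (AT1G04080), a U1-associated protein, had levels of 193 and 237 in ASI1 RIP and 432 in ASI1 input, against 0 and 10.1 in WT RIP and 229 in WT input. RIP was below input in both genotypes, and ASI1 RIP was above WT RIP in every pairing of libraries. PRP40A (AT1G44910), which in yeast bridges the 5′ splice site and the branch point, had levels of 2.33 and 112 in ASI1 RIP and 346 in ASI1 input, against 0 and 20.3 in WT RIP and 167 in WT input. Its ASI1 RIP libraries differed 48.3-fold, and its groups overlapped. PRP40B (AT3G19670) was listed in the ASI1 table alone, at 135 and 0 in ASI1 RIP and 432 in the ASI1 input. Pooled ASI1 RIP over input was 0.154 (0.0715 to 0.380) for PRP40A and 0.179 (0.0911 to 0.392) for PRP40B, the lowest among the 23 members of that table.

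The LUC7-related genes, whose yeast relative acts with U1, were split between the tables. UNE6 (AT3G03340) had levels of 0 and 216 in ASI1 RIP and 129.6 in the ASI1 input. AT5G17440 had levels of 0 and 10.1 in WT RIP and 66.9 in WT input. Neither showed RIP above input in both libraries of its genotype.

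Genes for recognition of the branch point and 3′ splice site were higher in ASI1 RIP than in WT RIP in every pairing of libraries, for 4 of 4 members in both tables, against 26% of the shared genes; the role was not tested as a group. SF1 (AT5G51300), the branch point binding protein, had levels of 699 and 317 in ASI1 RIP and 0 in ASI1 input, against 0 and 20.3 in WT RIP and 167 in WT input. Against the limit of 3 counts in the ASI1 input, its pooled ASI1 RIP level was at least 4.19-fold higher. Pooled ASI1 RIP over WT RIP was 33.5 (9.21 to 277), from 428 counts against 2. In the ASI1 table fitted alone SF1 was the only member with an unadjusted p under 0.05, at 0.0271, and its adjusted p was 1.00 in edgeR.

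U2AF65A (AT4G36690) and U2AF65B (AT1G60900) encode forms of the large U2AF subunit, which binds the polypyrimidine tract. U2AF65A had levels of 869 and 1408 in ASI1 RIP and 432 in ASI1 input, against 134 and 60.8 in WT RIP and 769 in WT input. It lay above its input in both ASI1 RIP libraries and below it in both WT RIP libraries. U2AF65B had levels of 275 and 796 in ASI1 RIP and 475 in ASI1 input, against 0 and 10.1 in WT RIP and 167 in WT input. Its ASI1 RIP libraries fell on either side of their input. The pooled ratio of ASI1 RIP over ASI1 input was 2.64 (1.43 to 5.53) for U2AF65A and 1.10 (0.608 to 2.22) for U2AF65B, intervals that overlap.

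U2AF35B (AT5G42820), a form of the small subunit that reads the AG at the end of the intron, had levels of 419 and 245 in ASI1 RIP and 475 in ASI1 input, against 89.2 and 40.6 in WT RIP and 167 in WT input. RIP was below input in both genotypes. U2B'' (AT2G30260), a protein of the U2 particle, was listed in the ASI1 table alone, at 0 and 280 in ASI1 RIP and 86.4 in the ASI1 input. Its RIP libraries disagreed in direction against the input.

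SUS2 (AT1G80070) is a plant PRP8, the protein at the catalytic core of the spliceosome. It had levels of 1130 and 159 in ASI1 RIP and 1512 in ASI1 input, against 134 and 101 in WT RIP and 485 in WT input. SKIP (AT1G77180), which acts in spliceosome activation and is known for a role in the plant circadian clock, had levels of 699 and 92.3 in ASI1 RIP and 821 in ASI1 input, against 44.6 and 20.3 in WT RIP and 384 in WT input. For both genes ASI1 RIP replicate 1 was high and replicate 2 was low, 7.12-fold apart for SUS2 and 7.57-fold apart for SKIP, and both stayed below their input. AT2G16940, annotated as a CC1-like splicing factor, was listed in the ASI1 table alone, at 585 and 542 in ASI1 RIP and 864 in the ASI1 input. Its RIP libraries differed 1.08-fold, the closest among the members.

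Per kilobase of transcript, the order of the members in ASI1 RIP was led by U1-70K, with a mean level per kb of 504, followed by U2AF65A at 493, RS41 at 363, U2AF65B at 251, RS31 at 223 and AT2G16940 at 219. The replicates of U1-70K spanned 379 to 628 per kb and those of U2AF65A 376 to 610 per kb, so these neighbours did not differ beyond their spread. RS41, at 303 to 422 per kb, overlapped both. At the low end, PRP40A had a mean of 17.9 per kb and PRP40B of 18.9 per kb.

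RIP and input of the same genotype were set against each other next. In the ASI1 table both RIP libraries were above the input for 7 of 23 members (30.4%), against 23.6% of its 4016 genes outside rRNA. They were RS41, RSZ21, RSZ22, SR45a, U1-70K, SF1 and U2AF65A. For RSZ21, RSZ22 and SF1 the ASI1 input holds 0 counts. A gene is listed only if at least 2 of its 3 libraries are above 0. Their place above the input therefore follows from listing, as it does for any other gene at 0 in that input. Both were below the input for 8 of 23 members (34.8%), against 24.4% of the genes. The members of the ASI1 table thus lay on both sides of their input at shares near those of all genes. In the WT table both RIP libraries were above the input for 0 of 18 members, against 15.5% of its 4650 genes outside rRNA. Both were below it for 17 of 18 members, against 54.5% of the genes, and RS2Z32 was the exception.

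Pooled WT RIP over WT input had an interval below 1 for 12 of 18 members, against 25.2% of the genes of that table, and above 1 for 1, RS2Z32, at 5.83 (1.45 to 50.9), against 18.1%. These shares of genes count a bound at 3 counts where a count was 0. Its lowest value was 0.0126 (0.00404 to 0.0299) for U1-70K. Pooled ASI1 RIP over ASI1 input was above 1 for 6 of 23 members, counting SF1, RSZ21 and RSZ22 by their lower bounds, against 16.1% of the genes of that table, and below 1 for 4, against 12.8%. RS41 had the highest ratio with a counted input, 4.36 (1.86 to 13.5). SUS2 had 0.460 (0.328 to 0.664) and SKIP 0.510 (0.325 to 0.845).

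Depth differed between the genotypes in the same direction as these values. At least 20 counts in both RIP libraries were reached by 15 of 23 members in ASI1, against 35.8% of the genes of that table. In WT this held for 0 of 18 members and 1.31% of the genes. No WT RIP library reached 20 counts for 17 of 18 members, against 78.7% of the genes. In WT RIP replicate 1, 9 of 15 shared members were at 0, against 37.2% of the shared genes.

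Input RNA was compared as single libraries without a test. The ratio of ASI1 input over WT input had an interval above 1 for 4 of 15 members, namely SUS2 at 3.11 (1.86 to 5.22), U2AF65B and U2AF35B at 2.85 (1.10 to 7.48) each, and SKIP at 2.16 (1.13 to 4.08). For comparison, 14.4% of the shared genes were above 1 by this interval or, against a count of 0, by a bound at 3 counts. The interval was below 1 for U1-70K. SF1, with 0 against 10 counts, was at most 0.777 at the limit of 3 counts, but its interval of 0 to 1.15 includes 1. By the interval or such a bound, 6.51% of the shared genes were below 1. Without U1-70K, the summed level of the other 14 members was 6311 and 4511 in ASI1 RIP and 5355 in ASI1 input, against 490 and 598 in WT RIP and 3020 in WT input. The pooled ratio of ASI1 RIP over WT RIP had an interval above 1 for 12 of 15 members, against 61.9% of the shared genes, and below 1 for 0 of 15, against 23.4%. The exceptions were PRP40A, SCL30A and RS2Z32.

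**Figure D3:**
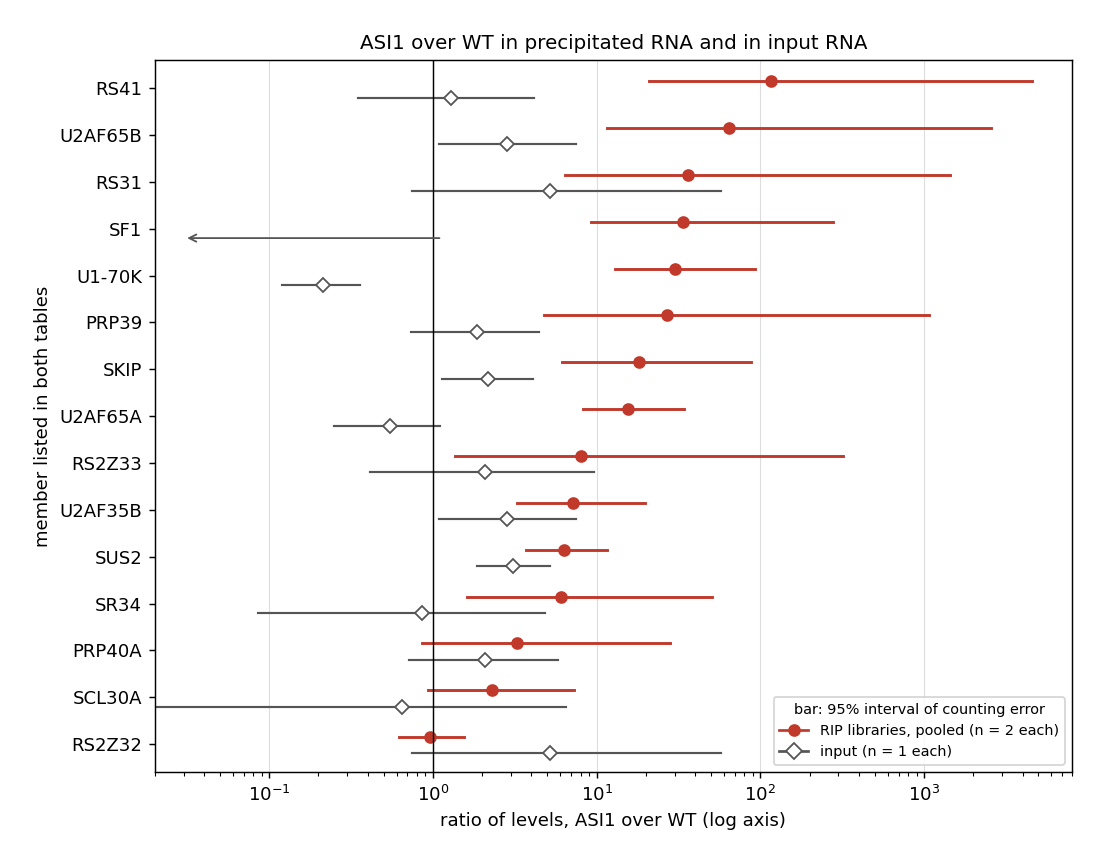
Ratio of levels, ASI1 over WT, for the 15 members in both tables (horizontal logarithmic axis); filled circles pool the 2 RIP libraries of each genotype, open diamonds are the single inputs, bars are 95% intervals of counting error and the arrow marks SF1, at 0 in the ASI1 input. The RIP ratio reaches 116 for RS41 and the input ratio of U1-70K, 0.215, lies on the other side of 1 from its RIP ratio of 30.1.

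Tests across all genes called no member. A call needed a log2 fold of at least 1 in either direction and an adjusted p under 0.05 in edgeR's quasi-likelihood test over the 2233 shared genes that passed a filter on low counts, among them all 15 shared members. For ASI1 RIP over WT RIP, 0 of 15 members and 0% of the genes were called, and 29 genes had an unadjusted p under 0.05. There DESeq2 called 12 genes, of which 0 were members. It gave no adjusted p for RS41, RS31, SCL30A, RS2Z32, RS2Z33, PRP39, SF1, U2AF65B, U2AF35B and SKIP, so those members could not be called. For ASI1 RIP over ASI1 input, edgeR called 0 of 15 members and 0.134% of the genes, and for WT RIP over WT input 0 of 15 members and 0.0448% of the genes. For the difference of the enrichments edgeR called 0 of 15 members and 0% of the genes, 2 genes had an unadjusted p under 0.05, and 0 were called by DESeq2. With each table fitted alone, edgeR called 0 of 23 members and 0.127% of the genes in ASI1, and 0 of 7 members tested and 0% of the genes in WT, where 3 genes had an unadjusted p under 0.05. DESeq2 called 11 genes there and 0 members. In the joint fit the biological coefficient of variation was 1.47, with 2 residual degrees of freedom. In the tables fitted alone it was 1.82 for ASI1 and 1.40 for WT, with 1 residual degree of freedom each.

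For ASI1 RIP over WT RIP all 15 members had a fold above 0, against 72.9% of the genes tested, and their median log2 fold was 3.65, against 1.89 over all genes. With TMM scaling 14 of 15 were above 0, against 66.7% of the genes, RS2Z32 being at −0.57, and the medians were 3.02 and 1.28. Without WT RIP replicate 2 the medians were 6.92 for the members and 2.49 for all genes. For WT RIP over WT input the median log2 fold was −3.07 for the members and −1.39 for all genes, against −1.88 and −0.10 with TMM and −5.61 and −1.90 without WT RIP replicate 2. For ASI1 RIP over ASI1 input it was 0.21 for the members and 0.10 for all genes, and 1.27 and 1.06 with TMM. These comparisons share libraries, so the medians are not independent of each other.

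**Figure D4:**
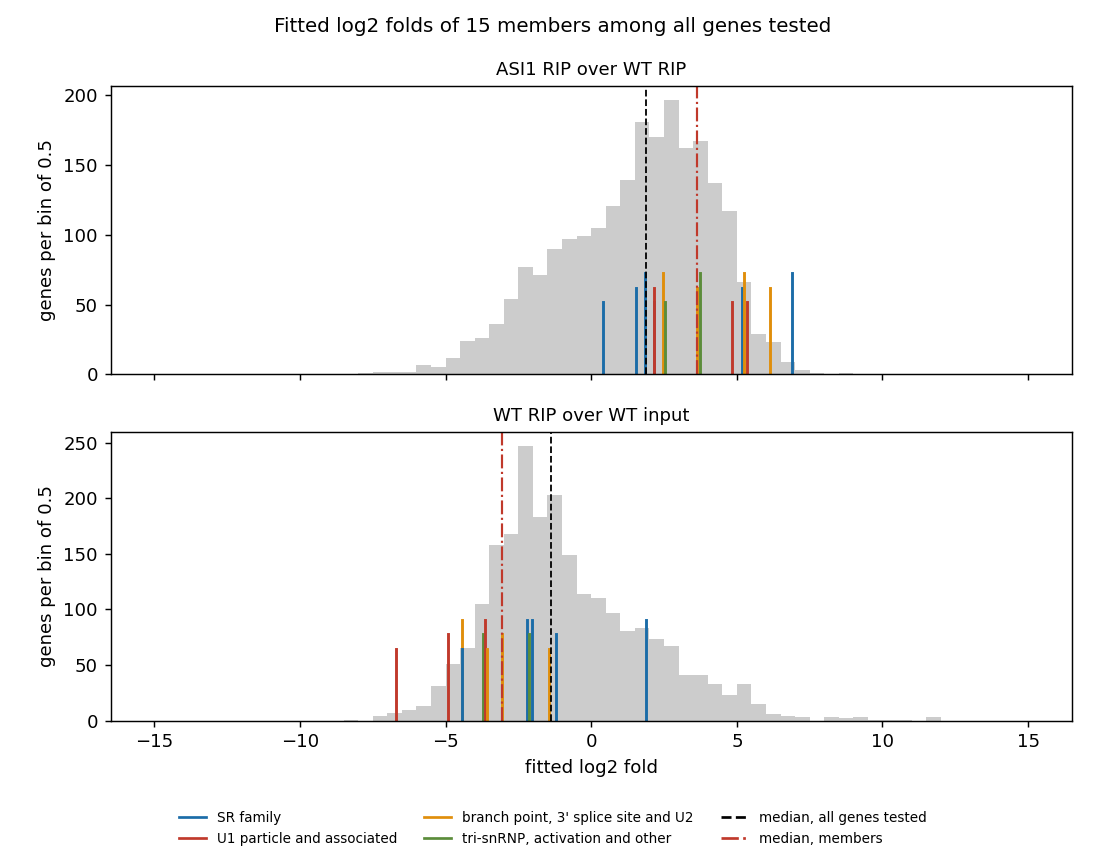
Fitted log2 folds of all 2233 genes tested (grey, genes per bin) with the 15 members as coloured vertical ticks by role; the dashed line is the median of all genes and the dash-dotted line the median of the members, and tick heights carry no value. The members' median lies at 3.65 against 1.89 for ASI1 RIP over WT RIP (top) and at −3.07 against −1.39 for WT RIP over WT input (bottom).

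By role, the pooled summed level of ASI1 RIP over WT RIP was 21.9-fold for the 3 U1 members, 16.7-fold for the 4 members of the branch point and 3′ splice site, 8.51-fold for SUS2 and SKIP, and 5.98-fold for the 6 SR members. The U1 members summed to 1114 and 1872 in ASI1 RIP and 1468 in ASI1 input, against 0 and 81.1 in WT RIP and 3521 in WT input. The SR members summed to 2023 and 1145 in ASI1 RIP and 864 in ASI1 input, against 89.2 and 314 in WT RIP and 485 in WT input. U1-70K holds most of the U1 sums in ASI1 RIP, and RS2Z32 holds most of the SR sum in WT RIP replicate 2. SUS2 and SKIP summed to 1829 and 251 in ASI1 RIP and 2332 in ASI1 input, against 178 and 122 in WT RIP and 869 in WT input, so that their ratio was 1.90-fold without ASI1 RIP replicate 1. The ratio of the SR members was 18.3-fold without WT RIP replicate 2. For these libraries left out, the branch point and 3′ splice site members were at 18.6-fold and 11.2-fold. The U1 members were at 28.3-fold without ASI1 RIP replicate 1 and 16.8-fold without ASI1 RIP replicate 2. Their 8.40 WT RIP counts are all in WT RIP replicate 2, so no ratio exists without that library. The order of the roles was not tested.

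Several members are related pairs, among them RS40 and RS41, RS2Z32 and RS2Z33, SCL30 and SCL30A, RSZ21 and RSZ22, PRP40A and PRP40B, and U2AF65A and U2AF65B. How reads that match several related genes were divided is not given in the sources used here, so the split among relatives, listed or not, is uncertain.

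In the TAIR10.1 annotation the listed members have more annotated transcripts, more introns and a longer longest intron than the protein-coding genes listed, members included. The 26 members have a median of 3 annotated transcripts, against 1 over the 6226 protein-coding genes listed, and 80.8% of the members have over 1 transcript, against 42.9% of those genes. The longest intron has a median of 412 bp in the members and 272 bp in those genes, and it reaches 500 bp in 34.6% of the members and 17.3% of the genes. The median number of introns is 6 in the members and 4 in those genes, and the longest intron was not adjusted for it. Transcript length is alike, with medians of 2008 and 1946.5 bases. These are properties of the annotation and carry no test.

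Other spliceosome and RNA-binding genes outside the given members were counted from a list. It joins genes whose annotated product matched splicing terms with genes added by hand, GRP7 among the latter. The matches include CRS1, annotated as a chloroplast splicing factor-like protein. AT1G54380 is counted both in this list and among the regulators of SR proteins below. Of 87 such genes 31 were listed and 17 were in both tables. Both ASI1 RIP libraries were above both WT RIP libraries for 8 of 17 (47.1%), against 26% of the shared genes, and below for 1, against 4.74%. Their median log2 fold of ASI1 RIP over WT RIP was 2.75, against 3.65 for the members, and edgeR called 0 of 17, with 1 at an unadjusted p under 0.05. The highest by mean RIP level was AT1G60200, an RBM25-like gene, at 6013 and 4373 in ASI1 RIP and 1209 in ASI1 input, against 0 and 60.8 in WT RIP and 769 in WT input. GRP7 (AT2G21660), a glycine-rich RNA-binding protein, had 2603 and 3360 in ASI1 RIP and 5226 in ASI1 input, against 669 and 2362 in WT RIP and 4212 in WT input. Of 6 regulators of SR proteins 2 were listed, and of 82 spliceosomal RNA genes 3 were listed; of the 2 regulators and 1 spliceosomal RNA tested for ASI1 RIP over WT RIP, edgeR called 0, with 0 at an unadjusted p under 0.05. That RNA, U1.5 (AT1G08115), a U1 small nuclear RNA, had levels of 5736 and 6314 in ASI1 RIP and 1080 in ASI1 input, against 12724 and 6918 in WT RIP and 451 in WT input. It was lower in both ASI1 RIP libraries than in both WT RIP libraries, the opposite order to 11 of the 15 members.

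The other 15 given members are not analysed here: RS31a, SR30, SR34a, SR34b, SCL28, SCL33, SC35 and RSZ22a among the SR genes, U1A and U1C of the U1 particle, U2AF35A, U2A' and SF3A1 of the branch point, 3′ splice site and U2 group, and emb1220 and EMB2770 of the tri-snRNP. A gene is listed in a table only if at least 2 of its 3 libraries are above 0. Listing therefore follows depth as well as level.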

How the data were processed

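RNA immunoprecipitation libraries of ASI1 and WT seedlings (2 RIP, 1 input each) were analysed from 1 deposited table per genotype. The authors deposited expected counts (estimated counts per gene) and CPM over the listed total of each library, per the file headers. The deposited tables also give the authors' log2 fold change and mean log2 CPM, and their p-value and FDR, per the file headers; these were not used for the results. STAR 2.6.0c, Salmon 0.10.2 and edgeR are named in the submitters' processing notes; no source used here gives the genome build or strand setting.

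Gene identifiers (100%) matched the TAIR10.1 annotation, which gave symbols, transcripts and introns. Non-rRNA counts made 17.5% and 20.1% of the ASI1 RIP libraries and 0.534% of the ASI1 input, against 19.4% and 19.7% of WT RIP and 0.966% of the WT input. Levels are CPM over those. Expected counts were rounded and fitted with edgeR 4.0.16 (glmQLFit, glmQLFTest; limma 3.58.1, R 4.3.3) on all 6 libraries over the shared genes, with filterByExpr, non-rRNA totals as library sizes and Benjamini-Hochberg adjustment over all genes tested. Each table was also fitted alone. The SE printed with a fold is the absolute log2 fold divided by the square root of the quasi-likelihood F statistic. It is not a standard error reported by edgeR. Each input is a single library and is assumed to vary like the RIP libraries. Ratio intervals are exact conditional binomial, at 95%. The ratios of single genes and their intervals use pooled counts rounded to whole numbers, whereas the summed ratios by role use unrounded counts. The scripts were checked on simulated data. Alternatives were TMM with and without rRNA, DESeq2 1.42.0, no filter, no abundance trend, a replicate block and leaving out each RIP library. Tables and plots used Python 3.11.15 with pandas 2.3.3, numpy 2.4.6, matplotlib 3.10.9 and scipy 1.17.1.

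All members could be named; values in every library went to those with at least 20 counts in both RIP libraries of a genotype, to the 3 highest and 3 lowest folds of ASI1 RIP over WT RIP and to U1-70K, and the remaining listed members were added. The members and lists were chosen with earlier results of these data known.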

Additional observations from a re-analysis of the deposited data

Results flagged for a closer look

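For 4 of the 15 members in both tables, both ASI1 RIP libraries lay above the ASI1 input while both WT RIP libraries lay below the WT input. On the log2 scale the ASI1 enrichment minus the WT enrichment was 7.56 for U1-70K, 6.53 for RS41, 4.51 for U2AF65A and 13.03 for SF1. The value of SF1 depends on the prior count, since its ASI1 input is at 0. With that input at 0, SF1 could be listed only if both ASI1 RIP libraries were above 0, so its order in ASI1 was fixed. None of the 4 passed the test of this difference (adjusted p of 1.00 each in edgeR). The same order of libraries held for 279 of the 2319 shared genes (12.0%).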

How the results depend on the processing

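No member was called under any alternative run, although DESeq2 gave no adjusted p for several members, which it could therefore not call. Counts of called genes were small and moved: for ASI1 RIP over ASI1 input 3 became 1 with either TMM scaling, 0 without the abundance trend and 0 to 2 with a RIP library left out; for WT RIP over WT input 1 became 0 with DESeq2, without the filter, without the trend and with any RIP library left out (0 to 0). DESeq2 called 12 genes for ASI1 RIP over WT RIP, 28 in the ASI1 table alone (main 5; TMM 11, TMM with rRNA 13) and 11 in the WT table alone. The count of 11 members higher in ASI1 RIP became 7 with median scaling, 10 with TMM (22.6% of all shared genes) and 11 to 13 with a library left out (31.7% to 52.4% of all shared genes), when 0 to 1 members were lower (11.1% to 21.2%). The members' median for ASI1 RIP over ASI1 input was −0.71 without ASI1 RIP replicate 1 0.21 without either WT RIP library, and 1.38 with TMM and rRNA kept. That median minus the median of all genes ranged from −0.83 to 0.11 with a library left out and reached 0.26 with TMM and rRNA kept. In the ASI1 table alone the median was −0.28 with TMM and −0.29 with rRNA kept, and SR45a was at −0.0068 and −0.015. For ASI1 RIP over WT RIP the members' median was 2.53 with DESeq2. RS2Z32 was at −0.57 with either TMM scaling and −0.94 with DESeq2, and from −7.07 to 7.92 with a library left out. The replicate block over the RIP libraries called 0 genes and put RS2Z32 at −1.52 and SCL30A at −0.78, with a members' median of 3.69. Deviations of libraries of the same number had a correlation of −0.0103 across 2319 genes (log2 level with a pseudocount of 30). In WT RIP replicate 1, 37.2% of the shared genes were at 0. This value therefore cannot decide whether libraries of the same number are paired, and the labels do not say. The cause of these changes was not tested. The tables fitted alone could not be tested with a library left out, for want of residual degrees of freedom. Depth in WT RIP limits every value under 129 and 29.0.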
